A study of Mus musculus with 2 samples.

Results

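The genes described here encode the enzymes and carriers of mitochondrial and peroxisomal fatty acid oxidation, together with proteins that build peroxisomes. A total of 46 genes were chosen by name from their known roles, though with earlier results of these data known. Of these, 45 had at least 1 probe set annotated to a single gene, out of 12393 genes on the array. These 45 genes were read by 71 of 20380 probe sets, which are groups of short oligonucleotides that each detect part of a transcript. Tumors were induced in female FVB wild-type mice that were 5 weeks old at the start, by 15 mg medroxyprogesterone acetate under the skin, a progestin in depot form, and then 4 weekly gavages of 1 mg DMBA, a polycyclic carcinogen, in cottonseed oil. From 1 day after the last DMBA dose, the GW9662 group ate chow with 0.1% GW9662, an irreversible antagonist of the nuclear receptor PPARγ, and the control group ate standard chow without it. For either diet, equal amounts of tumor RNA from 5 mice made up 1 pool, which was read on 1 Affymetrix mouse array. With 1 array per diet nothing could be tested, every difference is a difference between 2 pools, and variation between mice and tumors cannot be told apart from an effect of the diet.

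Fatty acids are broken down in mitochondria by repeated rounds of dehydrogenation, hydration, a second dehydrogenation and thiolysis, each round releasing acetyl-CoA. Long chains enter as carnitine esters, and electrons from the first step pass through the electron transfer flavoproteins to the respiratory chain. Peroxisomes shorten very long and branched chains by a parallel set of enzymes whose first step yields hydrogen peroxide, which catalase removes. Many of these genes are activated by PPARα in liver, and in fat and muscle by other members of the same receptor family.

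Genes of fatty acid oxidation had mostly lower signals in tumors from GW9662-treated animals, by modest amounts. Each gene was represented by its brightest probe set, the one whose mean over both arrays was highest. On this basis 43 members had a mean signal of at least 100, and 34 of these were lower in GW9662 tumors (79.1%), where 47.1% of all 8009 genes with such a mean were lower. The median log2 ratio of GW9662 over control was -0.34 over the 43 members and 0.03 over all 8009 genes. Of 39 members that reached 300 on at least 1 array, 5 were at least 2-fold lower (12.8%), against 4.68% of 6053 genes, and 0 were at least 2-fold higher, against 1.02% of all genes. These 5 were Acaa1b, Crat, Acadm, Pex16 and Echs1. At least 1.5-fold lower were 10 of the 39 members (25.6%), against 9.80% of all genes, and 0 were at least 1.5-fold higher, against 6.39%. At least 3-fold lower was 1 member, Acaa1b (2.68% of all genes). Acaa1b, Crat and Ehhadh belong to a list of reduced metabolic genes that the study drew up on arrays of these tumors, from signals that are not identical to the deposited ones, so their direction is not independent evidence. Without these 3, 31 of 40 members were lower, the median log2 ratio was -0.27, and 3 of 37 members (8.11%) were at least 2-fold lower. The members Acaa1b, Ehhadh, Decr2 and Abcd2 passed the mean of 100 only through their control signal. Of the 39 members with both signals at 100 or above, 30 were lower (76.9%), against 45.9% of all 7672 genes with both signals at that level.

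**Figure D1:**
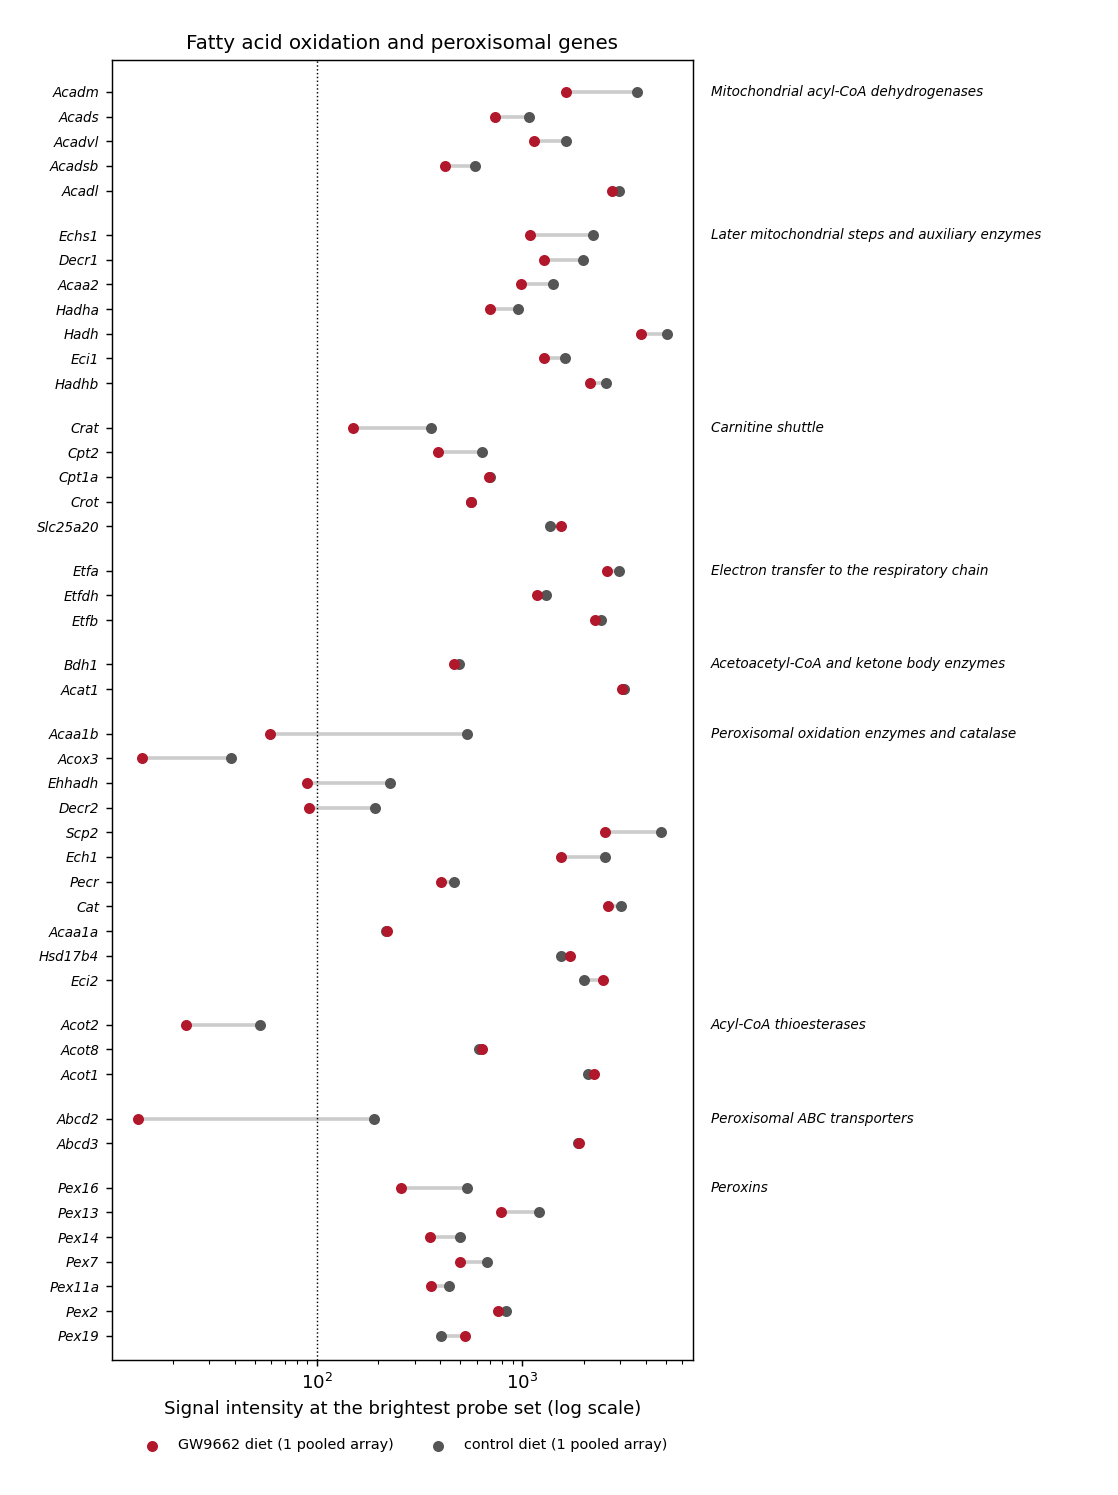
Signal intensity of the 45 genes at their brightest probe set, on a log scale, with the GW9662 diet array in red and the control diet array in gray. Rows are grouped by role, the dotted line marks a signal of 100, and gray bars join both arrays. The longest bars are those of Abcd2 and Acaa1b, and most red points lie to the left of the gray ones.

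Markers of other tissues moved between the same arrays. All 16 measured adipocyte markers and all 15 measured skeletal muscle markers were lower in GW9662 tumors, with median log2 ratios of -4.43 and -3.13. Several in either list, such as Lep and Myh1, passed the mean of 100 only through their control signal and so could only be lower. With signals below 100 set to 100, the medians were -3.16 and -2.49. Lep and other adipocyte markers are also on the study's list of reduced metabolic genes, so their direction is not independent evidence. Summed over all of the list with a probe set, the signal of the adipocyte markers was 8482 on the GW9662 array and 73558 on the control array, and that of 24 muscle markers was 1873 and 14082. Endothelial markers were lower for all 11 measured genes (median log2 ratio -0.66) and myoepithelial markers for 6 of 8 (median -0.63). Fibroblast markers were lower for 9 of 12 (median -0.20) and macrophage markers for 6 of 12 (median 0.03). Brown fat markers, a list that overlaps the adipocyte one, were lower for 3 of 4 measured genes (median -2.30). Of these, Cidea and Cox8b passed the mean of 100 only through their control signal and so could only be lower. With signals below 100 set to 100, the median of the brown fat markers was -1.73. None of the fat or muscle markers was listed at 0, which also held for every probe set on the GW9662 array. On that array Myh1 was at 33.4 and Lep at 23.0. The Lep signal did not exceed the highest of the olfactory receptor probe sets (25.8). Fat and muscle both express fatty acid oxidation genes, and in bulk tumor RNA fewer cells of a type and less RNA per cell cannot be told apart. The part of these tissues and cell types in the ratios of the oxidation genes was not tested. Markers of luminal mammary epithelium were mostly close to level, with a median log2 ratio of 0.17 over 13 measured genes, 5 of them lower. Signals summed over 15 genes were 59131 on the GW9662 array and 57085 on the control array. Of the 12 that reached 300, 1 was at least 2-fold lower, against 4.68% of all genes. This was Elf5 (2040 on the GW9662 array and 4138 on the control array). Of 9 hepatocyte markers, 7 were below 100 on both arrays. The exceptions were Alb (20.8 on the GW9662 array and 128.8 on the control array) and Fgb, a fibrinogen chain (276.9 and 3190 in the same order).

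All 5 mitochondrial acyl-CoA dehydrogenases, which catalyze the first step of β-oxidation and differ in the chain length they accept, had lower signals in GW9662 tumors. Acadm, the medium-chain enzyme, had a signal of 1625 on the GW9662 array and 3590.0 on the control array, 2.21-fold lower. The very-long-chain enzyme Acadvl had 1136 on the GW9662 array and 1628 on the control array, 1.43-fold lower, and the short-chain enzyme Acads had 739.9 and 1080.2, 1.46-fold lower. Acadsb, which acts on short branched acyl-CoAs from isoleucine, had 422.7 on the GW9662 array and 589.6 on the control array, 1.39-fold lower. Acadl, the long-chain enzyme, differed least, with 2730.5 and 2945 in the same order, 1.08-fold lower. A second Acadl probe set was at 1.3 and 12.5, no higher than olfactory receptor probe sets, none of which exceeded 25.8. The 5 genes thus spanned log2 ratios of -1.14 to -0.11, with Acadm set apart from the 3 genes near -0.5 and from Acadl.

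The 7 enzymes of the later mitochondrial steps also had lower signals, and their median log2 ratio was -0.45. Echs1, the short-chain enoyl-CoA hydratase, had a signal of 1094.5 on the GW9662 array and 2210 on the control array, 2.02-fold lower and just past the 2-fold limit. Decr1, a reductase needed for unsaturated fatty acids, had 1270 on the GW9662 array and 1967 on the control array, 1.55-fold lower, and its dimmer probe set was 171.1 and 303.6. Eci1, an isomerase that also handles unsaturated chains, had 1272.5 and 1610, 1.27-fold lower. Acaa2, the mitochondrial thiolase, was lower at all 3 of its probe sets, with log2 ratios of -0.51, -0.19 and -0.54. Hadh, the dehydrogenase for medium and short chains, was 1.33-fold lower at its brightest probe set (3788 on the GW9662 array and 5034 on the control array) and had a log2 ratio of -0.87 at another (1379 and 2521). Hadha and Hadhb encode the α and β subunits of the trifunctional protein, which carries out the last 3 reactions on long chains. Hadha, which has 1 probe set, had 699.2 on the GW9662 array and 958.1 on the control array, 1.37-fold lower. Hadhb had a log2 ratio of -0.26 at its brightest probe set (2137.5 on the GW9662 array and 2565 on the control array). Its other probe set gave -0.90 (1577 on the GW9662 array and 2950 on the control array), so the size of its difference depends on the probe set read.

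Promoter sequences from RefSeq (build GRCm38.p6) were found for 37 of the 46 genes, and the 250 bases before each start site were searched on both strands. The consensus direct repeat bound by PPAR with its partner RXR (AGGNCA, any 1 base, then AGGNCA again, where N is any base) was in 0 of the 40 windows of these genes and in 0.338% of 32851 windows of all genes. The ERR element TCAAGGTCA was likewise in 0 of 40, and in 0.387% of all windows. At such low rates 0 matches in 40 windows were likely for any genes, so these counts do not show that the elements are absent. Sequence farther away and looser matches were not searched. The shorter half-site AGGTCA, which lies within the ERR element and within the direct repeat where N is T, was in the windows of 6 genes, Acadm, Acadvl, Echs1, Cpt1a, Cat and Scp2, 15% of the 40 windows, against 14.0% of all windows. Shown here, chosen after their signals were seen, are the windows of the 2 genes with the half-site that were at least 2-fold lower, with the half-site or its reverse complement in capitals. The window of Acadm lies on the minus strand at chr3:153944644-153944893, and that of Echs1 on the minus strand at chr7:140116422-140116671. The third window is that of Hadhb, on the plus strand at chr5:30155003-30155252. Hadha and Hadhb are transcribed in opposite directions from start sites with 272 bases between them, so this window is most of the stretch they share, and it has no half-site.
Acadm: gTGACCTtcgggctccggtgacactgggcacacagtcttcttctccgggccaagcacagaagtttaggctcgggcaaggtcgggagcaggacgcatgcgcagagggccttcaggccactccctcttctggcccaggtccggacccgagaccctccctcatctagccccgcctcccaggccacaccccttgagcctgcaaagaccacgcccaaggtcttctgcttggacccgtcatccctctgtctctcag
Echs1: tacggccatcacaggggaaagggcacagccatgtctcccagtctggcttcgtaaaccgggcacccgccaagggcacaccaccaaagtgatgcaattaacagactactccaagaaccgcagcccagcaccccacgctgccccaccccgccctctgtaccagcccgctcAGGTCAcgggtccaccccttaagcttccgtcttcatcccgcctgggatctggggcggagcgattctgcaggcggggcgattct
Hadhb: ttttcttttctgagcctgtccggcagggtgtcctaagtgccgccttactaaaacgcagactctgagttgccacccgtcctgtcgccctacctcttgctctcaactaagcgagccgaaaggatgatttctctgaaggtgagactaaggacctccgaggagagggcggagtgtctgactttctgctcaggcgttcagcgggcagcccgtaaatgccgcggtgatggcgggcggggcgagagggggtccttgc

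Electron transfer and ketone body genes differed little. The flavoprotein subunits Etfa (2580 on the GW9662 array and 2958 on the control array) and Etfb (2257 and 2416) and their dehydrogenase Etfdh (1184 and 1309), which hands electrons to ubiquinone, had log2 ratios of -0.20, -0.10 and -0.14. Acat1, the mitochondrial acetoacetyl-CoA thiolase, had 3043 on the GW9662 array and 3134 on the control array at its brightest probe set, and its other probe sets had log2 ratios of 0.12 and -0.31. Bdh1, the hydroxybutyrate dehydrogenase, had 463.9 and 493.9. All 3 electron transfer genes lay closer to level than 11 of the 12 enzymes of the matrix steps, the exception being Acadl for Etfa and Etfdh.

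The carnitine shuttle was split. Crat, the carnitine acetyltransferase that buffers short acyl groups, had a signal of 150.1 on the GW9662 array and 360.8 on the control array, 2.40-fold lower, and Cpt2, which rebuilds acyl-CoA inside the mitochondrion, had 389.2 and 635.2, 1.63-fold lower. In contrast, Cpt1a, the outer membrane enzyme that limits entry of long chains, had 689.6 on the GW9662 array and 694.7 on the control array. Its dimmer probe sets were 143.4 and 130.9, and 155.6 and 96.8, with log2 ratios of 0.13 and 0.68. Slc25a20, the carnitine-acylcarnitine translocase, had 1549 on the GW9662 array and 1356 on the control array, 1.14-fold higher, while its other probe set was lower (415.2 and 498.0). Crot, the octanoyltransferase that exports shortened chains from peroxisomes, was level (564.9 and 564.3). Over the 5 genes the median log2 ratio was -0.01. Cpt1b, the muscle isoform, was listed only together with other genes on its probe set and was not analysed here.

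Signal ratios of the peroxisomal enzymes ranged widely. Acaa1b, a peroxisomal thiolase, had a signal of 59.3 on the GW9662 array and 536.2 on the control array. A signal below 100 was raised to 100 to give a lower bound of the fold, so Acaa1b was at least 5.36-fold lower. Acaa1a, the closely related thiolase, was close to level, with 220.0 on the GW9662 array and 217.9 on the control array at one probe set and 187.9 and 237.2 at the other. Both Acaa1a probe sets carry IDs ending in _x_at, a class whose probes can match other transcripts, so reads of the 2 thiolases may not be fully separate. The brightest probe sets of Hsd17b4, Hadh and Hadhb and the only one of Acadsb are of the same class. Ehhadh, the L-bifunctional enzyme of the hydration and dehydrogenation steps, had 90.3 on the GW9662 array and 228.5 on the control array, at least 2.29-fold lower, but did not reach 300. Its counterpart Hsd17b4, the D-bifunctional enzyme that also handles branched chains, had 1699 on the GW9662 array and 1543 on the control array at its brightest probe set, a log2 ratio of 0.14, and its dimmer probe set gave 1252 and 1420. The pairs Acaa1b and Acaa1a, and Ehhadh and Hsd17b4, thus had unequal ratios for related reactions.

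Windows of Acaa1b and Ehhadh, which had the lowest log2 ratios among peroxisomal enzymes above a mean signal of 100, are shown with that of the level Acaa1a. None contains the half-site, so no base is in capitals. They lie at chr9:119157094-119157343 on the minus strand (Acaa1b), chr16:21787835-21788084 on the minus strand (Ehhadh) and chr9:119341044-119341293 on the plus strand (Acaa1a).
Acaa1b: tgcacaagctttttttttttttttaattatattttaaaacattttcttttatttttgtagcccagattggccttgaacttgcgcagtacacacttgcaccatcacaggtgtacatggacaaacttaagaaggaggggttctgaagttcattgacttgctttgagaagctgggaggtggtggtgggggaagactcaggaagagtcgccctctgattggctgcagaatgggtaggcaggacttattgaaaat
Ehhadh: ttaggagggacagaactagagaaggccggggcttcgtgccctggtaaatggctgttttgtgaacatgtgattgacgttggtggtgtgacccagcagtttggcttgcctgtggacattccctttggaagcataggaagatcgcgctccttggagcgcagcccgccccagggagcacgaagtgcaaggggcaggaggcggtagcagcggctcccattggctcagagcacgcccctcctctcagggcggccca
Acaa1a: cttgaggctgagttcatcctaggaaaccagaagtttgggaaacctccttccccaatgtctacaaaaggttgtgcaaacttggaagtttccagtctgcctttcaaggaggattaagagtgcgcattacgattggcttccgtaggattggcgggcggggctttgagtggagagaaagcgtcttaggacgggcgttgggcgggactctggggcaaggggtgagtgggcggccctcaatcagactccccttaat

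Scp2, which encodes a thiolase for branched chains and a sterol carrier protein, was lower at all 4 of its probe sets. Its brightest had 2520 on the GW9662 array and 4707 on the control array, 1.87-fold lower and just short of the 2-fold limit, and others had log2 ratios of -0.77 and -0.63. The dimmest, with a mean of 97.5 over both arrays, was lower too. Ech1, a dienoyl-CoA isomerase, had 1542 on the GW9662 array and 2523.5 on the control array, 1.64-fold lower. Decr2, the peroxisomal dienoyl-CoA reductase, had 91.5 and 192.0, at least 1.92-fold lower. Eci2, an enoyl-CoA isomerase, was in contrast 1.24-fold higher (2471 on the GW9662 array and 1991 on the control array). Pecr, a reductase that takes part in chain elongation, had 401.7 and 467.8. A dimmer Pecr probe set had a log2 ratio of 1.15 at signals of 53.4 and 24.0, below 100 on both arrays. Catalase (Cat) had 2611.5 on the GW9662 array and 3018 on the control array, 1.16-fold lower, at its brightest probe set, and a log2 ratio of -0.76 at the other (1382 and 2348). Acox3, an oxidase of branched chains, was below 100 on both arrays (14.2 and 38.2), so no fold was given. The median log2 ratio of the 10 measured peroxisomal enzymes was -0.47, and it was -0.21 without Acaa1b and Ehhadh.

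Of the ABC transporters that bring fatty acids into the peroxisome, Abcd2 had a signal of 13.6 on the GW9662 array and 190.7 on the control array, at least 1.91-fold lower. That GW9662 signal did not exceed the highest of the olfactory receptor probe sets. Abcd3, the abundant transporter of the peroxisomal membrane, was level (1887 on the GW9662 array and 1868 on the control array). The thioesterases, which release free fatty acids from acyl-CoA, showed no lower gene among those measured. Acot1, the cytosolic enzyme, had 2240 on the GW9662 array and 2075 on the control array, and Acot8, the peroxisomal enzyme, had 636.2 and 615.9. Acot2, the mitochondrial enzyme, was below 100 on both arrays (23.1 and 53.0). Acot1 and Acot2 are close copies that lie next to each other on chromosome 12, so their probe sets may share transcripts. Their windows, at chr12:84009252-84009501 (Acot1) and chr12:83987611-83987860 (Acot2), both on the plus strand, are shown because only Acot1 had signals above 100, and neither contains the half-site.
Acot1: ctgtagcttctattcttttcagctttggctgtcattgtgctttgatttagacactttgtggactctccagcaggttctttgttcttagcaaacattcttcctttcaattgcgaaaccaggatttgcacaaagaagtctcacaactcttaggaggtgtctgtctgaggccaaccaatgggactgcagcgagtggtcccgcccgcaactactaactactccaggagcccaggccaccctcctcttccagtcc
Acot2: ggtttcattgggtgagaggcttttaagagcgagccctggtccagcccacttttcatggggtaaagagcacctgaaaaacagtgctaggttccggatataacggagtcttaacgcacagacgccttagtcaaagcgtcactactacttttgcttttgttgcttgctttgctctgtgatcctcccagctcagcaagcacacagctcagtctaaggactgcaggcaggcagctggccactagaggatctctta

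Peroxins, the proteins that assemble peroxisomes and import their enzymes, were lower at the brightest probe set for 6 of 7 genes, with a median log2 ratio of -0.44. Pex16, which inserts proteins into the peroxisomal membrane, had 256.3 on the GW9662 array and 537.7 on the control array, 2.10-fold lower. The docking proteins of the import channel were both lower, Pex13 at 784.2 on the GW9662 array and 1212 on the control array (1.55-fold) and Pex14 at 354.1 and 496.0 (1.40-fold). Pex7, the receptor for enzymes with an amino-terminal targeting signal, had 497.7 on the GW9662 array and 675.9 on the control array, 1.36-fold lower. Pex11a, which drives peroxisome division, had 361.1 on the GW9662 array and 439.5 on the control array, and its dimmer probe set was lower too (258.7 and 403.3). Pex2, a ubiquitin ligase that recycles import receptors, had 757.9 and 834.5, a log2 ratio of -0.14. Pex19, the cytosolic chaperone of peroxisomal membrane proteins, had 524.2 on the GW9662 array and 401.6 on the control array at its brightest probe set, 1.31-fold higher, but 101.4 and 209.1 at the other.

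Probe sets of the same gene did not always have ratios of the same sign. Of the 71 member probe sets, 60 had a mean signal of at least 100, and 48 of these were lower on the GW9662 array (80%), against 49.5% of all named probe sets with such a mean. At least 2 such probe sets were available for 13 members, 7 of which were lower at all of them, and 6 had ratios of opposite sign, as did 42.0% of all 2639 genes with 2 or more such probe sets. Only Pex19 had log2 ratios that differed by at least 1, which 6.74% of those genes did. Its brightest probe set had a log2 ratio of 0.38, and the dimmer one -1.04, so no direction was settled for Pex19. The other 5 members with opposite signs (Cpt1a, Slc25a20, Acat1, Hsd17b4 and Acaa1a) had ranges of 0.70 or less. The SD of log2 ratios between probe sets of the same gene was 0.36 over those 2639 genes, a spread that contains no variation between mice. A second Pex16 probe set was 18.7 and 2.5, no higher than olfactory receptor probe sets.

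**Figure D2:**
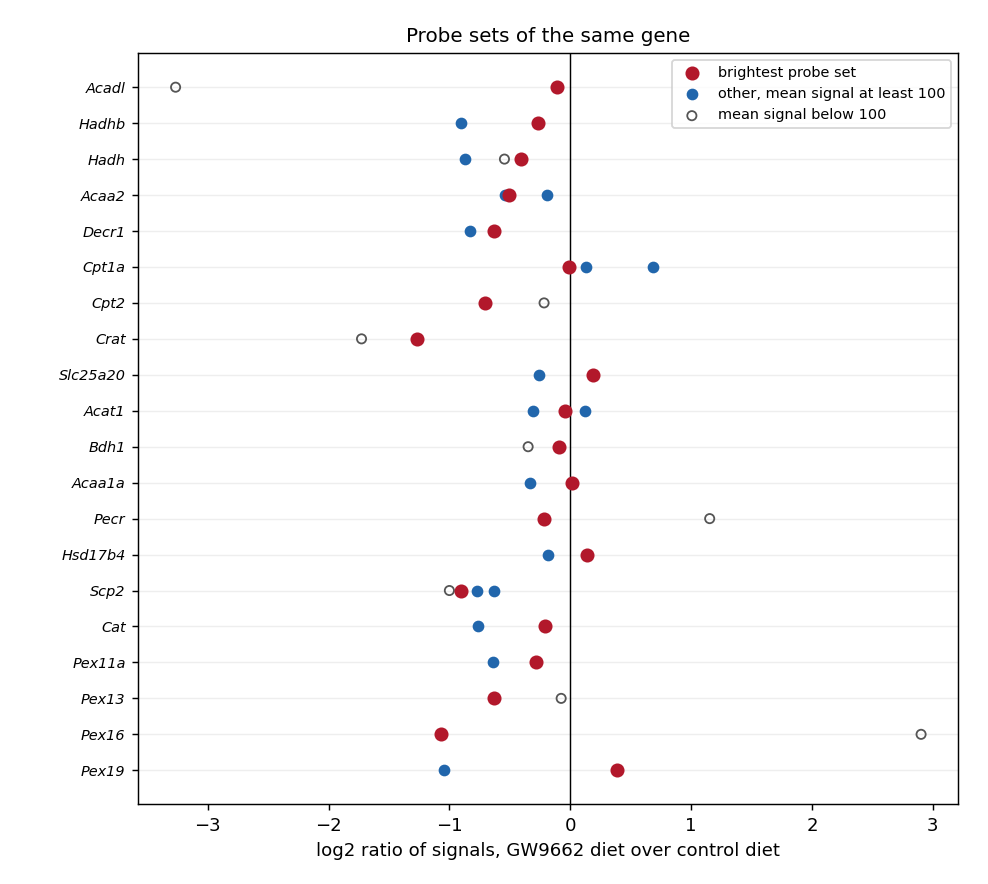
Log2 ratio of GW9662 over control for each probe set of the 20 members with more than 1 probe set. Red points are the brightest probe set, blue points are others with a mean signal of at least 100, and open circles have a mean below 100. Pex19 has filled points on both sides of 0 that are more than 1 apart, and the open circle of Pex16 at 2.90 rests on signals of 18.7 and 2.5.

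Other genes of the same pathways, from lists that leave out the members, were also mostly lower. The first list holds genes of mitochondrial acyl-CoA, branched-chain and ketone body breakdown, and also Pdk4 and the carnitine transporter Slc22a5. Of its 22 measured genes, 16 were lower, with a median log2 ratio of -0.26, where 47.1% of all genes were lower. Of the 20 that reached 300, 4 were at least 2-fold lower, against 4.68% of all genes, and 0 were at least 2-fold higher. These 4 were Acad11, an acyl-CoA dehydrogenase (322.7 on the GW9662 array and 826.7 on the control array, 2.56-fold lower), Mccc1, a carboxylase subunit of leucine breakdown (265.6 and 682.3, 2.57-fold lower), Ivd, the isovaleryl-CoA dehydrogenase of the same pathway (333.1 and 701.1, 2.10-fold lower), and Pdk4, the kinase that restrains pyruvate oxidation (343.9 and 752.9, 2.19-fold lower). Of 23 other measured peroxisomal genes, 16 were lower (69.6%, against 47.1% of all genes), with a median of -0.27. Of the 19 that reached 300, 2 were at least 2-fold lower (10.5%), against 4.68% of all genes. One was Ephx2, an epoxide hydrolase on the study's own list (76.4 on the GW9662 array and 690.2 on the control array, at least 6.90-fold). Ephx2 passed the mean of 100 only through its control signal and so could only be lower. The other was Pxmp2, a channel of the peroxisomal membrane (109.8 and 518.0, 4.72-fold).

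Most listed respiratory chain subunits did not share the direction of the oxidation enzymes. The 12 enzymes of the matrix steps of β-oxidation, the dehydrogenases and later steps together, were all lower, with a median log2 ratio of -0.49. Of 66 measured subunits on the list of the respiratory chain and ATP synthase, 15 were lower and 51 were higher, with a median of 0.11. That list did not hold the subunits Cox8b (9.1 on the GW9662 array and 1136 on the control array) and Cox7a1 (150.3 and 232.2). Both stood among the brown fat markers and were lower. The study's list of reduced metabolic genes holds Cox8b and a further subunit, Cox6a2. Citrate cycle enzymes lay between the matrix enzymes and the listed subunits, 12 of 18 lower with a median of -0.13. De novo lipogenesis genes, enzymes together with the regulators Srebf1, Mlxipl and Thrsp, were far lower, with a median of -1.81 over 12 genes. Acacb and Mlxipl passed the mean of 100 only through their control signal and so could only be lower. With signals below 100 set to 100, the median of this list was -1.76. Of the 11 listed genes that reached 300, 7 were at least 3-fold lower, against 2.68% of all genes. Among the 7 were Fasn (942.1 on the GW9662 array and 5907 on the control array) and Thrsp, which is also among the adipocyte markers. Fasn and others of the 7 are on the study's list of reduced metabolic genes, so their direction is not independent evidence. With 1 array per diet the difference between these groups could not be tested, and the values are a description of the 2 pools. Of 17 regulators known to act on these or related genes, 10 had a mean signal of at least 100, 4 of them lower and 6 higher in GW9662 tumors. Of the 8 that reached 300, 1 was at least 2-fold lower, against 4.68% of all genes, and 1 at least 2-fold higher, against 1.02%. Pparg had a signal of 52.0 on the GW9662 array and 712.7 on the control array, at least 7.13-fold lower. It is also among the adipocyte markers and on the study's list. Esrrb, a relative of Esrra, had 360.2 on the GW9662 array and 111.3 on the control array, 3.24-fold higher, and Esrra, which drives oxidative genes, was level (407.7 and 404.0). Ppara (5.4 and 15.8) did not exceed the olfactory receptor probe sets, and the coactivator Ppargc1a (49.9 and 51.8) was below 100 on both arrays.

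**Figure D3:**
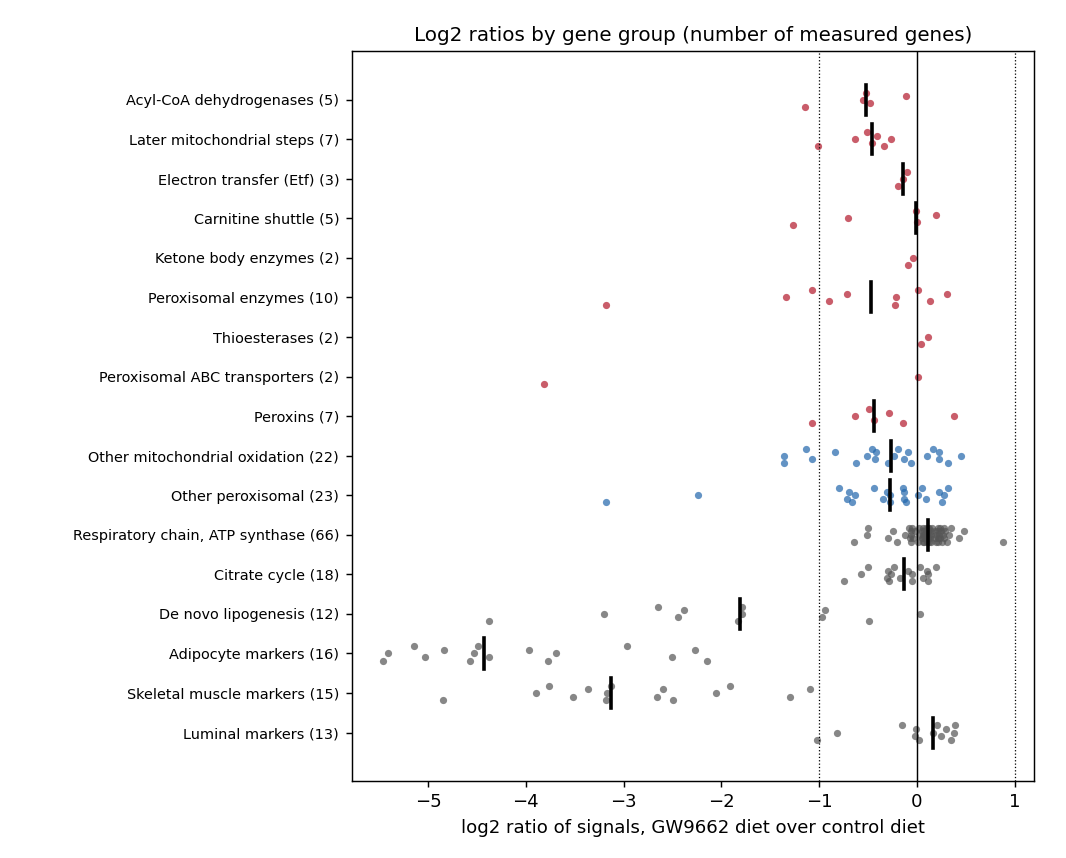
Log2 ratio of GW9662 over control for each gene with a mean signal of at least 100, by group, with the number of measured genes in parentheses. Red marks groups of the members, blue other genes of the same pathways and gray comparison groups, black bars are medians of groups with more than 2 genes, and dotted lines mark 2-fold differences. The medians of the dehydrogenases (-0.52) and later mitochondrial steps (-0.45) lie left of 0, and that of the listed respiratory chain subunits (0.11) lies right of it.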

How the data were processed

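Tumor RNA was measured on 2 Affymetrix mouse expression arrays, 1 for the GW9662 diet and 1 for the control diet, each with RNA pooled from 5 mice. According to the methods, the scans were gridded and read with GeneChip Operating Software 1.1. For every probe set the values deposited by the authors are a signal intensity on a linear scale. How it was summarised and scaled is not given in the sources used here, and detection calls were not used. As read from the values, the 2% trimmed mean was 500.2 on both arrays, and no further scaling was applied. Signals of 0 were read as 0.1 before log2.

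Of 22690 probe sets, 20380 named 1 gene in the platform annotation, updated by gene identifier to RefSeq GRCm38.p6 symbols. Another 691 named several genes and were left out, 64 were control probe sets, and 1555 were unnamed here. The brightest probe set by mean signal stood for each gene. A fold with a dimmer signal below 100 was given as a bound, and none was given when both were below 100. The number of arrays limits the precision.

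The gene lists and thresholds were chosen with earlier results of these data known. All members are named. In other pathway lists, genes past 2-fold with a signal of at least 300 are named. Alb, Fgb, Lep, Myh1, Elf5, Cidea, Cox8b, Cox7a1, Slc22a5, the named lipogenesis genes and the regulators were named after their values were seen. Promoter windows are shown for measured members with a log2 ratio past 2.5-fold where the table held them, for the Acaa1 and Acot pairs, and for Acadm, Echs1 and Hadhb, the last 3 chosen afterwards. Alternatives covered normalization, signal minimums, floors and the choice of probe set. Scripts ran in Python 3.11.15 with pandas 2.3.3 and numpy 2.4.6, and plots were drawn with matplotlib 3.10.9.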

Additional observations from a re-analysis of the deposited data

How the results depend on the processing

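No paired analysis was possible because each diet had 1 array, and no array could be left out. Members with a lower signal numbered 34 of 43, and between 29 of 37 (mean signal of at least 300) and 37 of 43 (median over probe sets) under the alternatives. The count at least 2-fold lower (5) was 4 after quantile normalization and with the probe sets of a gene summed, where Pex16 was no longer past 2-fold, and 8 with a signal minimum of 100, which added Abcd2, Decr2 and Ehhadh, with GW9662 signals below 100. With that minimum 2 were at least 3-fold lower, against 1. Alternatives added after seeing the data gave 10 at a fold of 1.5, and, without the members on the study's list, 3 at least 2-fold and 0 at least 3-fold lower. The median log2 ratio of the members (-0.34) was -0.26 with a mean signal of at least 300, -0.46 with the median over probe sets, -0.44 without IDs ending in _s_at or _x_at, -0.44 with probe sets summed and -0.27 without the study's list. The median of the peroxisomal enzymes (-0.47) was -0.21 with a mean of at least 300, -0.60 with the median over probe sets and -0.21 without the study's list. The medians of the mitochondrial genes, the carnitine shuttle and the peroxins moved by less than the spread between probe sets divided by the square root of the number of genes. That of the carnitine shuttle lay near 0 and took either sign. Members whose probe sets disagreed numbered 0 with a mean of at least 300 and 4 at a difference of 0.5, against 1. Of 358 values of single members under an alternative, 7 moved by more than the spread between probe sets, and none of the 5 members at least 2-fold lower changed direction.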
